A study of Rattus norvegicus with 24 samples.

Results

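A set of 2911 array probes at rat CpG islands was low in methylation signal in normal mammary gland and high in a minority of mammary carcinomas. They were found among 89403 autosomal probes, of which 55896 lay low in the glands, and the array held 93024 probes in all. The members fell into 1529 runs of neighbouring probes, out of 13903 autosomal runs. A run here is a row of probes whose starts lie at most 1000 bp apart, which stands in for an island.

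The level used throughout is C, the log2 ratio of methyl-enriched to unenriched DNA on an array minus the median of that ratio over the probes of the array. A member had C under 0.5 in each of 3 normal glands and C above 2 in 1 to 5 of 21 tumors, and a tumor with C above 2 is called a carrier. The members were selected on these gland and tumor values of C, so the low glands and the high carriers are a description and were not tested. The size of the set depended on the processing: there were 1343 members at a tumor limit of 2.5 and 5246 at 1.5. Normexp background correction, with ratios on another scale but the same limits, left 431, of which 119 belonged to the 2911. CpG islands are stretches of DNA rich in the CG dinucleotide, often at gene starts, and most are unmethylated in normal tissue. Gain of methylation at particular islands is a well-known feature of carcinomas, breast cancers included, and methylation at a gene start often goes with silencing. The methyl-CpG binding protein used for the enrichment captures DNA fragments that hold several methylated CpGs, so the signal of a probe also reads bases beside it.

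All rats were female Sprague-Dawley (Jcl:SD), and the pubertal timing of irradiation was the question of the study. Seven-tumor groups were labelled IR-3W, for carcinomas after 2 Gy of whole-body gamma rays from a 137Cs source at 3 weeks of age, IR-7W, for the same dose at 7 weeks, and Spontaneous, for carcinomas of rats without irradiation. The 3 normal glands (NMG) came from rats that were not irradiated. According to the labels, the rats ate a standard diet (CE-2) and, past 9 weeks of age, AIN-76A with 23.5% corn oil. IR-3W 6 and 7 came from the same rat, as did IR-7W 1 and 2. Each array hybridised DNA of a whole tumor or gland, so a change in the share of cell types and a change within cells cannot be told apart. Estrogen receptor (ER) and progesterone receptor (PR) states were taken from the study's list of tumors. Of 6 ER negative tumors, 5 were IR-3W and 1 was Spontaneous, and 15 tumors were ER positive. Of 8 PR negative tumors, 5 were IR-3W, 2 were IR-7W and 1 was Spontaneous, and 13 were PR positive. Because no IR-7W tumor was ER negative and IR-3W held most of the ER negative tumors, ER state and age at irradiation cannot be fully told apart.

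The arrays differed in spread. The slope of a tumor array against the mean of the other tumors was 1.56 for IR-3W 1, 0.763 for Spontaneous 7 and 0.783 for Spontaneous 4. The share of spots with unenriched (Cy3) signal well above background ranged from 89.7% to 99.1% over the 24 arrays, and that of enriched (Cy5) signal from 73.0% to 95.6%. Across all autosomal probes, 14.2% of tumor values lay above 2, against 0.63% of tumor values at the probes that were low in the glands.

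Most members were high in a single tumor. Among the 2911 members, 1776 (61.0%) exceeded 2 in 1 tumor, 592 in 2 tumors, 251 in 3, 179 in 4 and 113 in 5. Another 300 gland-low probes exceeded 2 in more than 5 tumors and were not members, 89 of them in 6 tumors. The median member peaked at a C of 2.36 and the highest single value was 7.93, at a spot with Cy3 not well above background, where the ratio has only a bound. Many members lay close to the limit: 433 peaked between 2 and 2.1, and just outside it 498 gland-low probes peaked between 1.9 and 2. On the gland side, 303 members had their highest gland value between 0.4 and 0.5, and 376 probes that met the tumor rule had it between 0.5 and 0.6.

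The other tumors also read above the glands at most members, though part of that gap is built in: the rule held every gland under 0.5 but set no such limit for the other tumors. At the median member, the mean over the other tumors exceeded the mean over the glands by 0.84 on the log2 scale, and this difference was above 0 for 94.3% of members. At gland-low probes that no tumor carried, the same difference had a median of 0.05 and was above 0 for 54.2%, and those probes were themselves chosen for having no tumor above 2. No test was made of this contrast. The median difference was 0.71 for members with 1 carrier and 1.26 for members with 5. A median of 6 tumors exceeded a C of 1 at a member. A clean split, with every other tumor under 0.5, was found at 98 members (3.37%), and every other tumor was under 1 at 277 (9.52%). The lowest carrier exceeded the highest other tumor by a median of 0.54, and by more than 1 at 654 members.

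All 21 tumors carried members, in very unequal numbers. IR-7W 6 carried 764 member probes in 420 runs and Spontaneous 1 carried 743 probes in 393 runs. Next came Spontaneous 6 with 303 runs, IR-3W 2 with 291 and IR-3W 1 with 272. At the other end stood IR-3W 3 with 18 runs, Spontaneous 4 with 37, Spontaneous 7 with 41 and IR-7W 5 with 47. Each tumor group was among the 5 highest tumors, and also among the 4 lowest. This order depended on the spread of the arrays. With each array divided by its slope, the 4 lowest were IR-3W 3 (16 runs), IR-3W 4 (33), IR-3W 1 (40) and IR-7W 7 (46), no Spontaneous tumor carried fewer than 81, and Spontaneous 5 rose from 87 to 303.

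**Figure D1:**
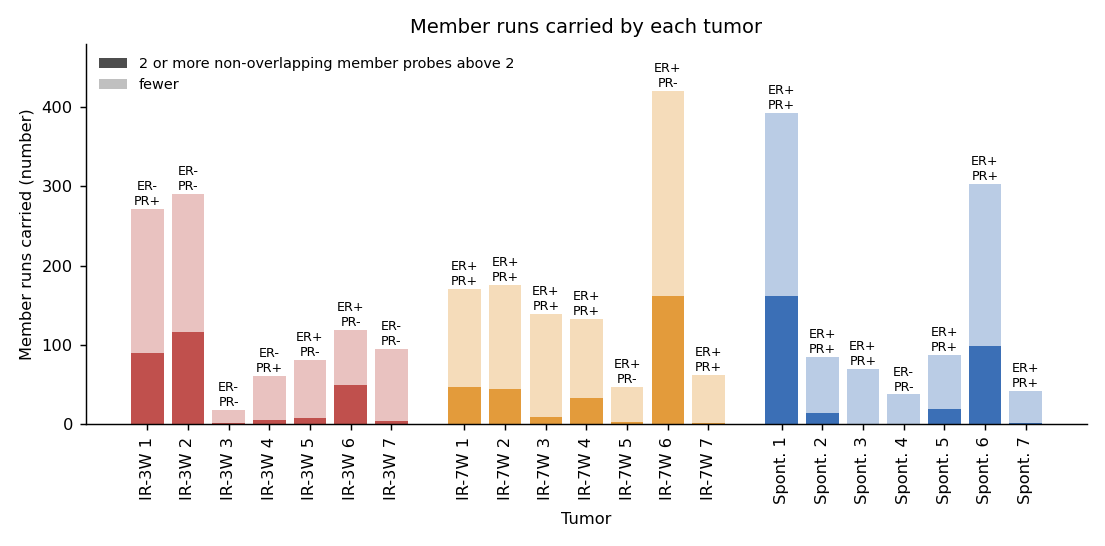
The number of member runs carried (vertical axis) is drawn for each of 21 tumors, with ER and PR state above the bar; the dark part counts runs in which 2 or more non-overlapping member probes exceeded 2 in that tumor, and the pale part the rest. IR-7W 6 (420 runs) and Spontaneous 1 (393) stand highest and IR-3W 3 (18) lowest, without slope correction of the arrays.

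Each tumor group carried about as many of the runs as the others. Of 1529 runs, 751 (49.1%) were carried by at least 1 IR-3W tumor, 808 (52.8%) by an IR-7W tumor and 748 (48.9%) by a Spontaneous tumor. Runs carried in 1 group alone numbered 353 for IR-3W, 288 for IR-7W and 282 for Spontaneous, and 172 runs (11.2%) were carried in all groups. IR-3W tumors carried a median of 95 runs (range 18 to 291), IR-7W tumors 139 (47 to 420) and Spontaneous tumors 84 (37 to 393). The ranges overlapped nearly throughout.

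On the log2(runs + 1) scale the mean was 6.62 ± 1.35 (SD, n = 7) for IR-3W, 7.05 ± 1.03 (n = 7) for IR-7W and 6.64 ± 1.31 (n = 7) for Spontaneous. IR-7W exceeded IR-3W by 0.43 (two-sided exact permutation p = 0.516, adjusted p = 0.654 over 5 comparisons). Spontaneous and IR-3W differed by 0.02 (exact permutation p = 0.973, adjusted p = 0.973). The mean of the Spontaneous tumors lay below that of IR-7W, by a difference of -0.41 (exact permutation p = 0.523, adjusted p = 0.654). None of these differences exceeded the spread between tumors. With each array divided by its slope, Spontaneous exceeded IR-3W by 1.25 (exact permutation p = 0.0612, adjusted p = 0.273) and IR-7W exceeded IR-3W by 0.96 (exact permutation p = 0.185, adjusted p = 0.308). Within scan days, IR-7W minus IR-3W ranged from -0.72 to 1.18 over 4 days, of which 2 were positive. Spontaneous minus IR-3W was 0.02 and 2.73 on the 2 days that held both groups, and Spontaneous minus IR-7W ranged from -1.36 to 1.55 over 3 days.

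The counts of the receptor states overlapped as well. ER negative tumors carried a median of 78 runs (range 18 to 291) and ER positive tumors 119 (41 to 420). The difference in log2(runs + 1) was -0.54 (exact permutation p = 0.361, adjusted p = 0.654; n = 6 and 15), and -0.95 with each array divided by its slope (exact permutation p = 0.109, adjusted p = 0.273). PR negative tumors carried a median of 88 runs (18 to 420) and PR positive tumors 132 (41 to 393), a difference of -0.47 (exact permutation p = 0.391, adjusted p = 0.654; n = 8 and 13). The PR difference was -0.25 with the slope division (exact permutation p = 0.664) and -0.83 with scan day as a block (exact permutation p = 0.116). Among the IR-3W tumors alone the ER difference was -0.02 (exact permutation p = 1, with 21 orderings). Within scan days the ER difference ranged from -1.90 to 0.84 and the PR difference from -1.60 to 0.72, each over 5 days. Of the 1529 runs, 840 were carried by ER positive tumors alone, 295 by ER negative tumors alone and 394 by both. For PR, the numbers were 653 for positive alone, 390 for negative alone and 486 for both.

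Neighbouring probes agreed in many carriers. For 2900 members another probe started within 1000 bp, and these gave 4974 pairs of a member and a carrier. The nearest probe was itself above 2 in 60.9% of the pairs, against 4.54% when the same neighbours were read in the tumors that did not carry the member. The mean C of the nearest probe was 1.96 in carriers and 0.49 in the other tumors. Because 44.8% of these nearest probes were members themselves, the neighbours that were low in the glands but no members were also read alone. Over 921 such neighbours, the mean C was 1.03 in carriers and -0.02 in the other tumors, and 17.5% against 1.92% exceeded 2. This subset is shaped by the rule too, since a gland-low probe that exceeds 2 in 1 to 5 tumors is a member and one that is no member can exceed 2 only where 6 or more tumors do, so the values are a description.

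Agreement fell with distance. In carriers, gland-low neighbours that overlapped the member probe exceeded 2 in 59.3% of readings. The share was 53.0% at a gap under 200 bp, 36.7% from 200 to 400 bp, 22.8% from 400 to 600 bp, and 12.3% from 600 to 1000 bp. Beyond that it was 11.1% up to 2000 bp and 7.99% up to 5000 bp. In the other tumors the share stayed between 1.53% and 2.71% over the same distances. The DNA had been sonicated to fragments of 200 to 600 bp, so probes within that span can be read from the same fragments, and probes that overlap share bases. Past 1000 bp the carriers still exceeded the other tumors by 0.38 in mean C up to 2000 bp and by 0.27 up to 5000 bp. The readings were pooled, so tumors that carried many members weighed most. Differences in spread between arrays were not taken out of these gaps.

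**Figure D2:**
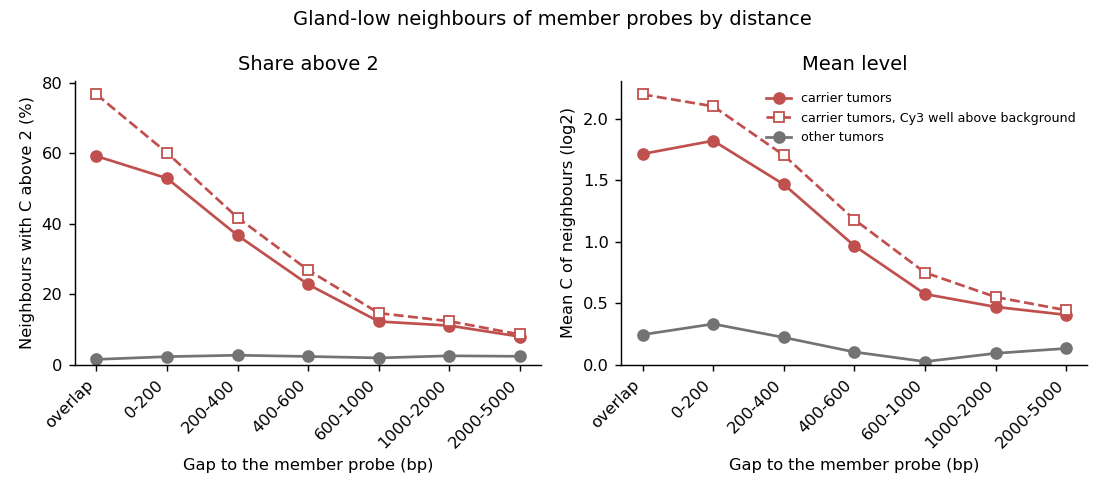
Gland-low neighbours of member probes are plotted by their gap to the member (horizontal axis, bp), as the share with C above 2 (left, %) and as mean C (right, log2), in carriers (red), in carriers with Cy3 well above background (dashed) and in the other tumors (grey). The share fell from 59.3% for overlapping neighbours to 7.99% at 2000 to 5000 bp in carriers and stayed below 3% in the other tumors.

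Agreement also differed sharply between tumors. In IR-3W 6 the nearest probe was above 2 for 78.1% of carried member probes. It was above 2 for 72.4% in IR-7W 6, 71.5% in Spontaneous 1 and in IR-3W 1, 67.4% in IR-3W 2 and 65.2% in Spontaneous 6. In Spontaneous 4 the share was 5.26%, in IR-3W 7 8.08%, in Spontaneous 3 8.70%, in Spontaneous 7 9.30% and in IR-7W 5 13.7%. The tumors with little agreement were those whose carried probes were dim in the unenriched channel. Cy3 was well above background for 10.5% of the member probes carried by Spontaneous 4, 13.1% of those in IR-3W 7, 14.1% in Spontaneous 3, 6.98% in Spontaneous 7 and 25.5% in IR-7W 5. Spontaneous 1, in contrast, had 97.0%, IR-3W 6 93.8% and IR-7W 6 92.4%.

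**Figure D3:**
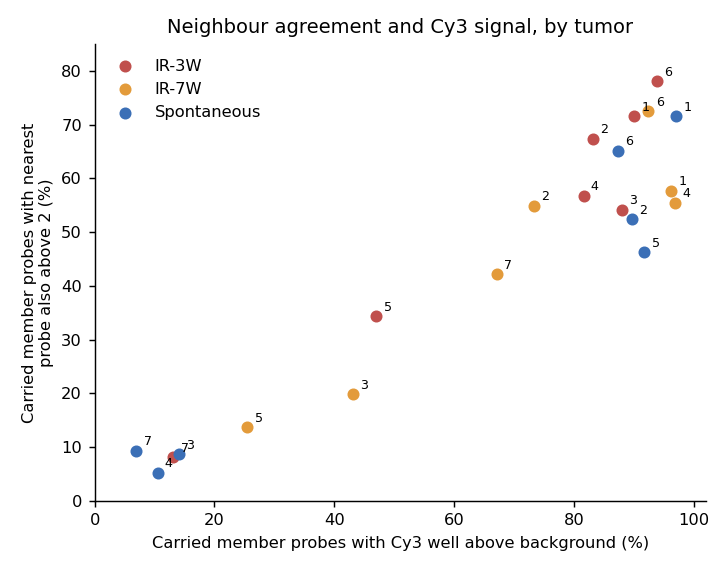
Each point is a tumor, numbered by replicate and colored by group; the horizontal axis gives the share of its carried member probes with Cy3 well above background (%) and the vertical axis the share whose nearest probe also exceeded 2 (%). IR-3W 7, IR-7W 5 and Spontaneous 3, 4 and 7 sit at the lower left, with at most 25.5% and 13.7%.

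Over all tumors, Cy3 was well above background at 83.0% of the 4994 pairs of member and carrier, compared with 85.6% of the same probes in the other tumors and 95.1% of all autosomal tumor values. Neither dye was well above background at 12.6% of the pairs. Where Cy3 was well above background the nearest probe exceeded 2 in 70.5% of 4141 pairs, and where it was not, in 12.97% of 833 pairs. A higher C went with more agreement in the first kind of pair, from 56.4% in the class of C nearest to 2 to 88.7% for C above 3. In the second kind the share was 10.2% and 37.9% in the same classes. A ratio over a denominator near background has only a bound, and 587 members had no carrier with Cy3 well above background. The other 2324 members lay in 1078 runs.

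The dyes were then read apart, each centered on its array median. Over all 2911 members, Cy5 in the carriers exceeded Cy5 in the other tumors by a median of 1.53 and Cy3 differed by a median of -0.06. In members with a well-measured carrier, Cy5 in those carriers exceeded Cy5 in the other tumors by a median of 1.69 on the log2 scale (5th to 95th percentile 0.88 to 2.96). Cy3 differed by a median of 0.01 (-0.50 to 0.57). In the 587 members without such a carrier, Cy5 was higher by 0.88 and Cy3 was lower, with a median difference of -1.43. The split was made on Cy3 in the carriers, which by itself gives a low Cy3 in the second set, so these values describe the sets and were not tested.

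Counted only where Cy3 was well above background, the runs carried fell from 95 to 11 in IR-3W 7, from 47 to 11 in IR-7W 5, from 69 to 9 in Spontaneous 3, from 37 to 3 in Spontaneous 4 and from 41 to 3 in Spontaneous 7. They fell little in Spontaneous 1 (393 to 379) and IR-7W 6 (420 to 383). The median tumor then carried 48 runs among the IR-3W, 126 among the IR-7W and 73 among the Spontaneous tumors. The medians were 31.5 runs for ER negative and 80 for ER positive tumors, and 22.5 for PR negative and 80 for PR positive tumors. No comparison of groups or receptor states passed with this filter (lowest exact permutation p = 0.279, PR negative against positive, difference -1.01; adjusted p = 0.616).

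A stricter reading asked for 2 or more non-overlapping member probes above 2 in the same run and tumor. This held for 861 of 3097 pairs of run and tumor (27.8%) and for 477 runs. Spontaneous 1 and IR-7W 6 each had 162 such runs, IR-3W 2 had 116, Spontaneous 6 had 98 and IR-3W 1 had 90. Spontaneous 3 and 4 had 0, and IR-3W 3, IR-7W 7 and Spontaneous 7 had 1 each. Of the 477 runs, 265 (55.6%) met this in 1 tumor alone, among them 58 in Spontaneous 1, 55 in IR-7W 6, 43 in IR-3W 2, 38 in IR-3W 1 and 26 in Spontaneous 6. The largest of the 5 group and receptor differences in this count was -0.91, ER negative against positive (exact permutation p = 0.462, adjusted p = 0.820).

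The tumors with many runs shared part of them. IR-7W 6 and Spontaneous 1 had 172 runs in common, which were 41.0% of the first and 43.8% of the second. Spontaneous 1 and 6 shared 120 (30.5% and 39.6%), and IR-7W 2 shared 95 with IR-7W 6 (54.0% of its own and 22.6% of the other's). A median of 5 runs was shared over all 210 pairs of tumors. Among tumors of the same rat, IR-7W 1 and 2 shared 35 runs (20.6% and 19.9%), and IR-3W 6 and 7 shared 4 (3.36% and 4.21%). The 35 lay above the median, but IR-7W 1 shared more with Spontaneous 1 (75) and IR-7W 2 with IR-7W 6 (95). No number expected from the runs of each tumor was worked out.

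The 10 runs with the most member probes, with ties broken by the highest C in a carrier (3 of 6 runs with 9 members were kept), differed in how many tumors were raised: the mean C over the members exceeded 1 in 1 tumor in 2 of the runs, and in up to 12 tumors in the others. Positions are on the rat build rn4. The run at chr2:197100651-197102578 (11 members of 18 probes) had 1 such tumor. In IR-3W 2 all 11 members exceeded 2 (2.07 to 3.78) and averaged 2.85. Next came IR-3W 5 with 0.93, and the glands read -0.16, -0.07 and -0.12. Group medians were 0.12 (IR-3W), 0.08 (IR-7W) and 0.24 (Spontaneous). The 7 probes of this run that were no members averaged 1.51 in IR-3W 2, 0.13 in the other tumors and -0.37 in the glands.

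At chr1:217770276-217772094 (9 members of 16 probes) Spontaneous 6 was the one tumor raised, at a mean of 2.67. The other 20 tumors lay between -1.28 and -0.21 and the glands between -0.62 and -0.26, so this run had a clean gap. Its 7 other probes averaged 1.29 in Spontaneous 6 and -0.35 in the other tumors. The run at chr17:50111124-50113878 (10 members of 15 probes) averaged 2.97 in IR-3W 5, with IR-7W 2 at 1.71 and IR-3W 3 at 1.52. The Spontaneous tumors reached -0.15 at most, and Cy3 was well above background at 69.2% of its carried values. At chr17:21359235-21360043 (9 of 11 probes) IR-7W 6 averaged 2.78, IR-3W 1 1.92, IR-7W 1 1.43, Spontaneous 2 1.17 and IR-7W 2 1.01, with glands between -0.14 and -0.04. At chr10:92924688-92925758 (10 of 12 probes) the raised tumors were IR-3W 2 (2.45), IR-7W 4 (1.503) and IR-3W 6 (1.05), and no other tumor exceeded 0.53.

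**Figure D4:**
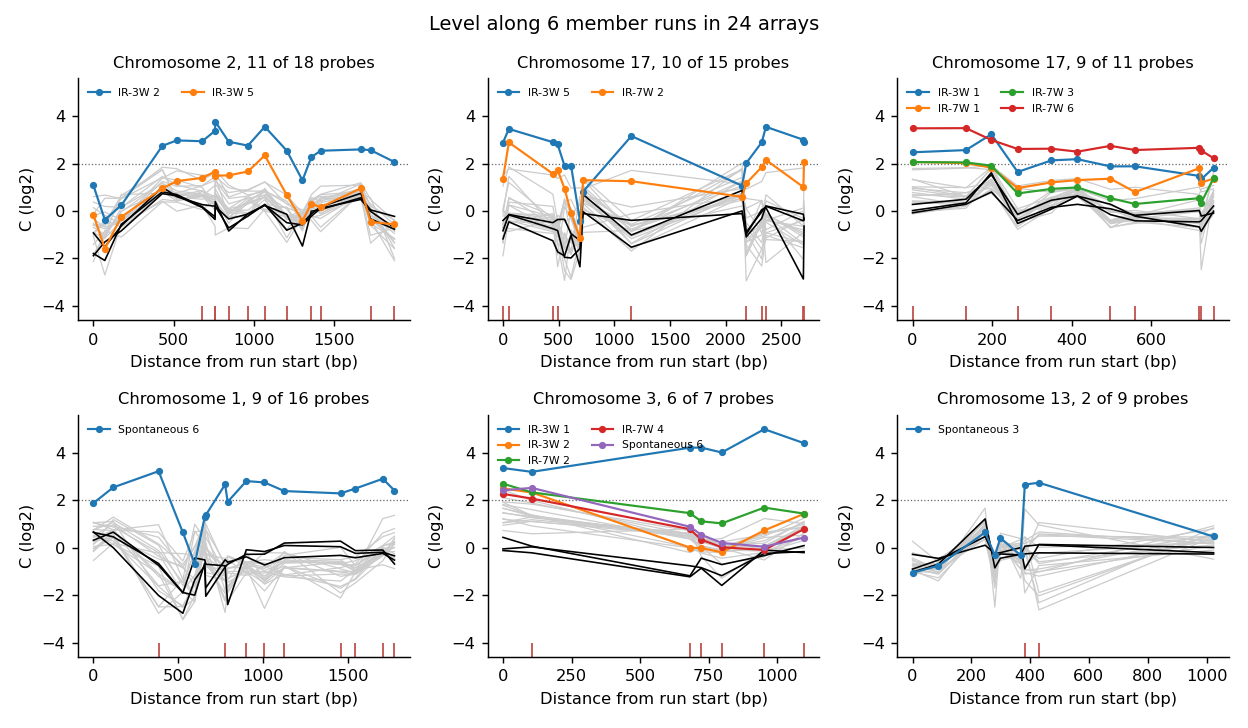
C (log2) is plotted against distance from the start of the run (bp) for 6 runs; carriers are colored, glands black and the other tumors grey, the red ticks mark member probes and the dotted line is at 2. In the chromosome 2 run IR-3W 2 lies above 2 at all 11 members, whereas in the chromosome 13 run Spontaneous 3 rises at 2 probes alone, both with Cy3 not well above background.

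In the other 5 of the 10 runs, 6 to 12 tumors had a mean above 1. At chr8:59105154-59109577 (12 of 27 probes, 10 carriers) the run means were -0.91 to -0.36 in the glands, and the tumor groups had medians of 0.93 (IR-3W), 1.02 (IR-7W) and 0.91 (Spontaneous). At chr10:50148658-50153464 (12 of 34 probes) the highest means were 1.86 in Spontaneous 1, 1.79 in Spontaneous 6 and 1.68 in IR-7W 6, and the IR-3W tumors lay between -0.21 and 0.68. At chr10:18099723-18103785 (11 of 29 probes) the means ran from -0.13 in IR-3W 1 to 2.14 in Spontaneous 6. At chr10:72805824-72807578 (10 of 16 probes) Spontaneous 1 and 6 each averaged 2.00 and the IR-3W median was 0.04. At chr5:120330924-120331903 (9 of 12 probes) 12 tumors exceeded 1, led by Spontaneous 6 (2.48) and IR-3W 2 (2.46), while the glands lay between -1.01 and -0.73.

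**Figure D5:**
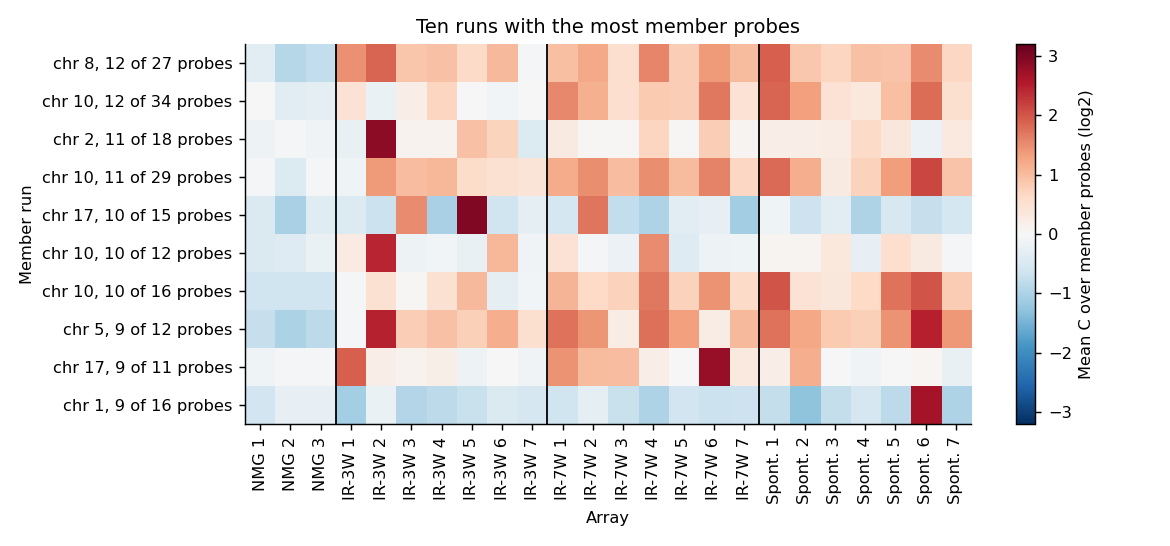
Color gives the mean C (log2) over the member probes of each of the 10 runs with the most members (rows) in the 3 glands and 21 tumors (columns). The chromosome 2 run is dark in IR-3W 2 (2.85) and the chromosome 1 run in Spontaneous 6 (2.67) alone, whereas the chromosome 8 run is pale red in nearly every tumor.

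Some tumors with few runs still held a long one. In IR-3W 3, which carried 18 runs, 7 members in a row at chr16:19866520-19867726 averaged 2.54 (2.14 to 2.79). The other tumors there lay between -0.66 and -0.26 and the glands between -0.32 and -0.19, and the 8 remaining probes of the run read -0.39 in the same tumor. In IR-3W 4, 6 members at chr7:10879460-10881457 averaged 2.40, ahead of 1.41 in IR-7W 1. The 12 other probes of that run were high in the glands too, and averaged 3.14 in IR-3W 4. In IR-7W 7, 3 members at chr13:83596226-83596726 averaged 2.31, and no other tumor exceeded 0.21. All carried values of these 3 runs had Cy3 well above background.

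Values here were not divided by the slope of the array, which was 1.56 for IR-3W 1. The longest run of IR-3W 1 lay at chr1:101298829-101299612, where 8 members averaged 2.72, ahead of IR-7W 6 at 1.61, over glands at 0.07 to 0.23. For IR-3W 6 it lay at chr9:89036206-89038734 (7 members, mean 2.57), and there IR-3W 2 averaged 2.68. For IR-7W 1 it lay at chr3:135465591-135466591, where 8 members lay between 2.26 and 3.18 and 9 tumors carried at least 1 of them. For Spontaneous 1 it lay at chr5:135430122-135431826 (9 members, mean 2.38), ahead of IR-7W 6 at 1.68. IR-7W 2 had 5 members at chr2:5798948-5800190 (mean 2.26, next IR-7W 1 at 0.94, a tumor of the same rat). IR-7W 4 had 5 at chr7:21138979-21140803 (2.20), a run in which IR-3W 2 reached 2.79. Spontaneous 2 had 5 at chr6:9016742-9017499 (2.28), behind Spontaneous 6 at 2.85, and 17 tumors exceeded 1 in this run. Spontaneous 5 had 4 of 4 probes at chr10:18097053-18097347 (2.24), an island next to the chromosome 10 run described above. IR-7W 3 had 3 at chr8:70351782-70352691 (2.17, below IR-3W 1 at 2.82), and IR-7W 5 had 3 at chr8:19630079-19630472, a run that averaged 2.51 in IR-7W 6 and 2.48 in IR-3W 6.

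The 4 tumors with least agreement had no run of more than 2 carried members. IR-3W 7 had 2 at chr5:139875131-139876448, Spontaneous 3 had 2 at chr13:45283568-45284636 and Spontaneous 7 had 2 at chr5:142598928-142600302. Cy3 was well above background at 0% of the carried values in each of these 3 runs. The 6 other probes of the first run averaged -0.48 in IR-3W 7 against -0.40 in the other tumors. Spontaneous 4 had 2 at chr7:59830118-59830950, with Cy3 well above background.

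Runs were also ranked by the mean C of their carried members, for each number of carriers from 1 to 5. The highest run with 5 carriers was chr3:57305931-57307073, where 6 of 7 probes were members. IR-3W 1, whose array had a slope of 1.56, averaged 4.18 there (3.21 to 5.01) without division by the slope. IR-7W 2 averaged 1.52 and the glands -0.70 to -0.41, and all carried values had Cy3 well above background. For 4 carriers it was a member at chr14:79267789-79267834 in the run chr14:79267158-79267834, with 3.46 in Spontaneous 6, 3.13 in IR-7W 6, 2.65 in IR-7W 2 and 2.29 in IR-3W 1, over glands at -0.74 to -0.65. The 4 neighbours in that run, none a member, averaged 3.35 in Spontaneous 6, 1.54 in the other tumors and -0.01 in the glands. For 3 carriers it was chr1:228936350-228937953, with 2 members, no tumor with both and Cy3 well above background at 33.3% of carried values. For 2 carriers and for 1 it was a lone probe with Cy3 not well above background, at chr2:28954630-28954678 (7.13 in IR-7W 6) and chr13:45309534-45309593 (7.93 in Spontaneous 6). Their neighbours averaged 0.77 and 0.03 in those tumors.

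Lone probes made up a large part of the set. In 938 of 1529 runs there was 1 member probe, and in 672 of these it had 1 carrier. The nearest probe stayed under 0.5 in that carrier for 294 of the 672, and Cy3 was well above background at 59 of the 294 (20.1%). The 3 highest of the 294 were chr5:79461124-79461168 (6.05 in Spontaneous 6, nearest probe -0.23), chr2:219409809-219409858 (5.80 in Spontaneous 6, nearest probe -1.13) and chr5:141529877-141529932 (5.64 in IR-7W 4, nearest probe -0.31). Cy5 at these spots was 52.0, 1520 and 179 times the median over tumors, and Cy3 was 0.69, 10.4 and 1.23 times its median. The scanner software marked each as an outlier spot. The nearest probe of the first overlapped it.

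Members lay in larger runs than other gland-low probes. The median run of a member held 9 probes, against 7 for gland-low probes that were no members. Of gland-low probes, 5.21% were members. The share was 6.18% for single-probe runs (11 of 178 probes), 4.74% in runs of 2 to 4 probes, 4.14% in runs of 5 to 8, 5.22% in runs of 9 to 12, 8.70% in runs of 13 to 20 and 7.46% in runs of 21 or more. By chromosome it was highest on chromosome 17 (7.66%), chromosome 3 (6.94%) and chromosome 14 (6.41%), and lowest on chromosome 13 (3.13%) and chromosome 9 (3.43%). With a Cy3-measured carrier required, chromosome 17 stayed highest (6.08%) and chromosome 13 lowest (2.13%). Ends of runs held members at 5.14% and inner parts at 5.24%, and with a Cy3-measured carrier required the shares were 3.70% and 4.41%. Probes of a run are not independent, so these shares are descriptions.

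The age groups were also compared probe by probe, with limma over all 93024 probes. At an adjusted p under 0.05 no member was called between IR-7W and IR-3W, and 0% of all probes were (lowest adjusted p of a member 0.109). At an unadjusted p under 0.05 there were 679 members (23.3%), against 6.5% of all probes. Members were chosen by their values in these tumors, with at most 5 carriers, and many share a run. All probes are not a set of like spread. In each comparison below, the unadjusted shares are therefore a description and no test of enrichment. At an unadjusted p under 0.005 the difference involved 242 members (8.31%), 237 of them higher in IR-7W, whereas 1.2% of all probes passed and 0.967% passed as higher. With slide as a block the number fell to 40 (1.37%, against 0.348% of all probes), with normexp to 105 (3.61%, against 0.505%) and with 1 tumor per rat to 144 (4.95%, against 0.862%). The median difference was 0.29 at members and -0.03 over all probes. Leaving out IR-7W 7 brought 22 members past the adjusted limit, out of 82 probes.

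Between Spontaneous and IR-3W tumors 1 member was called, where 0.0086% of all probes were. No member was called with slide as a block, with the replicate block or with 1 tumor per rat, whereas 23 members were called among 73 probes with scan day as a block. At an unadjusted p under 0.05 there were 613 members (21.1%), against 10.2% of all probes. At 0.005 there were 147 (5.05%), against 1.21%, and 137 were higher in Spontaneous, against 0.721% of all probes. This number was 79 without Spontaneous 5 (2.71%, against 0.715% of all probes), 87 without Spontaneous 1 (2.99%, against 1.02%) and 92 without Spontaneous 2 (3.16%, against 0.885%). It was 94 without IR-3W 6 (3.23%, against 0.928%) and 221 without Spontaneous 3 (7.59%, against 1.34%). It was 403 (13.8%) with scan day as a block, against 1.88% of all probes, 278 (9.55%) after the slope correction, against 2.22%, 84 (2.89%) with the methods' t-test, against 1.05%, and 36 (1.24%) with normexp, against 0.252%. The called member lay at chr2:228545799-228545843. It read -0.44 to 0.54 in IR-3W (median -0.13), 0.83 to 2.18 in Spontaneous (median 1.38), 0.08 to 1.72 in IR-7W (median 0.97) and -0.68 to -0.24 in the glands. The Spontaneous and IR-3W tumors did not overlap, and their means differed by 1.49 ± 0.21 (SE; limma adjusted p = 0.0397). The nearest probe differed by 1.28 in the same direction (limma adjusted p = 0.137). No member was called in 11 of 14 fits without 1 tumor, and the median difference over members was 0.25 against -0.05 over all probes.

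Spontaneous and IR-7W tumors showed no member past the adjusted limit of limma (0% of all probes). At an unadjusted p under 0.05 there were 148 (5.08%, against 3.93% of all probes). Without 1 tumor this ranged from 97 without IR-7W 6 (2832 of all probes) to 222 without Spontaneous 1 (5055 of all probes). At 0.005 there were 14 (0.481%, against 0.31%), and both main shares lay near the background. The number at 0.005 was 24 without IR-7W 5 (0.824%, against 0.292% of all probes), 23 without IR-7W 7 (0.79%, against 0.318%) and 30 without Spontaneous 1 (1.03%, against 0.516%). It was 23 with slide as a block (0.79%, against 0.363%), 24 with the replicate block (0.824%, against 0.333%), 5 with the methods' t-test (0.172%, against 0.344%) and 2 with normexp (0.0687%, against 0.0763%). Between ER negative and positive tumors no member passed the adjusted limit (0% of all probes), and 562 (19.3%) had an unadjusted limma p under 0.05, against 6.03%. At 0.005 there were 104 members (3.57%, against 0.801% of all probes), 93 of them lower in ER negative tumors, as were 0.572% of all probes. With 1 tumor per rat 63 passed (2.16%, against 0.955%), and the direction turned at members (40 of 63 higher in ER negative tumors) as over all probes (572 of 888). Without IR-3W 7 it also turned in both, at 34 of 65 members (2.23%) and 458 of 828 probes (0.89%). Without IR-3W 6 there were 165 members (5.67%, against 1.14%). The slide block left 36 (1.24%, against 0.51%), normexp background correction 33 (1.13%, against 0.269%) and the methods' t-test 65 (2.23%, against 0.645%). With tumor group as a covariate 1 member passed the unadjusted limit (0.0344%, against 0.181% of all probes). Between PR negative and positive tumors no member passed the adjusted limit (0% of all probes). At an unadjusted limma p under 0.05 there were 381 (13.1%, against 6.16%). Without 1 tumor this ranged from 281 without IR-3W 7 (4220 of all probes) to 677 without IR-7W 6 (5977 of all probes). At 0.005 there were 64 (2.20%, against 0.596% of all probes), 61 of them lower in PR negative tumors, as were 0.429% of all probes. With tumor group as a covariate there were 41 (1.41%), below the 1.58% of all probes. The number was 182 without IR-7W 6 (6.25%, against 0.96% of all probes), 37 without IR-3W 6 (1.27%, against 0.496%) and 39 without IR-3W 7 (1.34%, against 0.365%). It was 170 with slide as a block (5.84%, against 1.44%), 113 with scan day as a block (3.88%, against 1.02%), 33 with 1 tumor per rat (1.13%, against 0.377%), 42 with the methods' t-test (1.44%, against 0.567%) and 22 with normexp (0.756%, against 0.25%). The IR-3W comparisons share the IR-3W tumors with each other, and 5 of the 6 ER negative tumors are among them, so these counts are not independent. The unadjusted counts read the same tumors that chose the members, though not their labels.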

How the data were processed

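DNA of 21 rat mammary carcinomas and 3 normal glands was sonicated, and the part bound by a methyl-CpG binding protein (Cy5) and the unenriched DNA of the same sample (Cy3) were hybridised together to a CpG island array, 24 arrays on 12 slides scanned on 6 days. The authors extracted the scans with Agilent Feature Extraction 10.7.3.1. The deposited processed signals are intensity values, already background-subtracted and dye-normalized per the file headers. The median signals of spots and of their background are not corrected in this way, and were used only for the normexp alternative. The deposited series table holds log2 ratios, which lay within 0.001 of log2(Cy5/Cy3) of the scanner files for 97.9% to 99.6% of probes per array. Their direction follows the dyes in the labels. No column of the authors' own comparisons was used.

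C was log2(Cy5/Cy3) of the processed signals minus the array median over non-control probes, with no other normalization and no spot left out. The rule of C under 0.5 in each gland and above 2 in 1 to 5 tumors gave the members. The members, the run limits and all lists were chosen with earlier results of these data known, so no pattern here is independent support for another. Runs carried per tumor were compared as log2(count + 1) by two-sided exact permutation tests over tumors, with Benjamini-Hochberg adjustment over 5 comparisons. Probe-wise differences were fitted by limma (version 3.58.1; R version 4.3.3) to all 93024 non-control probes, each fit holding only the groups compared, with the same adjustment; the scripts were checked on simulated data. Tumors are the replicates, and 2 rats gave 2 tumors each; numbers in labels do not pair tumors. Precision is limited by the 24 arrays.

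Named runs were the 10 with the most members (ties broken by the highest C in a carrier), the run with the highest mean in carriers for each number of carriers from 1 to 5, the run with most members carried in each tumor, the 3 highest lone probes whose neighbour stayed under 0.5, and members called by limma. Alternatives covered the thresholds, background flags, outlier spots, array spread, background correction, the deposited ratios, blocks, shared rats and omission of single samples. Counts restricted to carriers with Cy3 well above background, or to runs with 2 or more non-overlapping member probes, were chosen after seeing the data. Probes are given by position on rn4, the build of the array design; gene names and sequences at these positions were not used here.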

Additional observations from a re-analysis of the deposited data

Results flagged for a closer look

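In tests for a tumor far from the other 6 of its group, IR-7W 6 stood apart on each count of members. It carried 764 member probes, where the gap to the next IR-7W tumor was 0.697 of the range of the group. It carried 420 member runs (gap 0.654 of the range) and 162 runs with 2 or more non-overlapping member probes (gap 0.714). On the log2(count + 1) scale the gaps were 0.39, 0.399 and 0.278 of the range and the tumor no longer stood apart in any of the 3, so the result depends on the scale. These 3 counts rest on the same probes and are not separate results. They count values that the rule itself used, so the flag is a description. The test marks about 1 in 20 groups by chance where values are close to normal, and 15 groups of 7 values were read. In IR-7W 6 the nearest probe agreed for 72.4% of carried members and Cy3 was well above background for 92.4%.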

How the results depend on the processing

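The number of members depended on the limits: 5246 probes in 2807 runs at a tumor limit of 1.5, 1343 in 705 at 2.5, 1330 in 833 at a gland limit of 0, 4886 in 2369 at a gland limit of 1, and 1135 in 662 with at least 2 carriers. Normexp background correction left 431 probes in 248 runs, 119 of them members of the original set. It used median spot signals with an offset of 50 and no dye normalization beyond the array median. The limits of C were unchanged, so the drop does not read background correction alone. The 2076 member probes with Cy3 well above background on all arrays lay in 989 runs, and 477 runs had 2 or more non-overlapping members in a tumor. Without a gland or without IR-3W 1 there were 2726 to 3828 probes in 1448 to 1988 runs. Neighbour agreement was 85.5% when a neighbour needed to exceed 1 (30.3% in other tumors), 57.9% to 61.8% without a gland or IR-3W 1, and 55.9% to 71.0% under the other alternatives (1.204% to 7.29% in other tumors). Of 139 alternatives to the comparisons of runs carried, 0 had an exact permutation p under 0.05 (main tests also 0), and the lowest was 0.0612. Spontaneous minus IR-3W turned sign with ranks (-0.14), member probes (-0.15), a limit of 2.5 (-0.51), Cy3-measured carriers (-0.60) and multi-probe runs (-0.64), and ranged from -0.37 to 0.29 without a tumor. It was 1.25 after the slope correction (medians of 166 and 52 runs, p = 0.0612, exact permutation) and 1.18 within scan days, and IR-7W minus IR-3W was 0.96 after the slope correction. Spontaneous minus IR-7W turned sign with each array divided by its slope (0.29) and within scan days (0.16). Without a tumor the others ranged from 0.04 to 0.69 (IR-7W minus IR-3W), -0.74 to -0.13 (Spontaneous minus IR-7W), -0.90 to -0.11 (ER) and -0.79 to -0.15 (PR). The slope correction took IR-3W 1 from 272 runs to 40 and Spontaneous 4 from 37 to 119. The causes were not tested.

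Members called by limma between IR-7W and IR-3W were 12 of 46 probes after the slope correction and 242 at an unadjusted p under 0.005. Without a tumor they were 0 to 22, where 0 to 82 of all probes were called. Between Spontaneous and IR-3W members called were 23 of 73 probes with scan day as a block, 6 of 33 after the slope correction and 147 at the unadjusted limit. Without a tumor they were 0 to 2, where 0 to 9 of all probes were called. They were 0 with slide as a block, normexp, 1 tumor per rat, the methods' t-test or the replicate block. The unadjusted limit gave 14 (Spontaneous against IR-7W), 104 (ER) and 64 (PR). Without a tumor these 3 stayed at 0 by adjusted p, where 0 to 1 of all probes were called.

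Replicate numbers do not pair the tumors: deviations of tumors with the same number correlated from -0.27 to 0.50, over 0.1 in 5 of 21 pairs, and 4 of 42 best matches had the same number. With the replicate block, Spontaneous minus IR-3W was 0.02 (exact p = 0.938), and no member was called in the 3 group comparisons (0 with the block).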
